A study of Mus musculus with 7 samples.

Results

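The leukocyte integrins and their ligand Icam1 were followed through both experiments on mouse bone-marrow-derived macrophages (BMDMs), which are macrophages grown from marrow cells with M-CSF. The set was chosen by symbol and holds 10 genes: 6 integrin α chains (Itgam, Itgal, Itgax, Itga4, Itga5 and Itgav), 3 β chains (Itgb2, Itgb1 and Itgb7) and Icam1. All 10 were present among the 48440 genes of the LPS experiment and the 55352 genes of the AAV experiment. In the LPS experiment, BMDMs labelled WT were sequenced at 0 h without LPS, and after 2 h and 4 h with 100 ng per mL of LPS, a component of the Gram-negative outer membrane that Toll-like receptor 4 senses. There was 1 library per time, so differences between times were not replicated and carry no p-value. In the AAV experiment, BMDMs received an adeno-associated virus with GFP (AAV-GFP, labelled WT) or with Shisa3 (AAV-Shisa3, labelled Shisa3 overexpression) for 48 h, with 2 samples per group. Per the study's methods, both vectors were of serotype AAV1 with a CAG promoter, which is active in most cell types, and marrow came from C57BL/6 mice of both sexes. No source states whether the 2 samples of a group came from separate mice or cultures, so the spread between them may be technical.

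Integrins are transmembrane receptors made of 1 α chain and 1 β chain, and a cell displays a chain stably only when it is paired. Itgb2 (CD18) pairs with Itgal to form LFA-1, with Itgam to form Mac-1 (the complement receptor CD11b/CD18 by which macrophages are commonly recognised) and with Itgax to form CD11c/CD18, and these receptors bind ICAM1 on other cells. Itgb1 pairs with Itga4 in VLA-4, which binds VCAM1 and fibronectin, and with Itga5 in the main fibronectin receptor, Itgav joins several β chains in receptors for vitronectin and latent TGF-β, and Itgb7 pairs with Itga4 in the receptor for MAdCAM-1 of gut vessels.

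Since Icam1 gave the highest LPS fold of the set, followed by Itga5 and Itgav, the 250 bases before the RefSeq start site of each are printed (GRCm38.p6, 5′ to 3′ on the gene's strand). Capitals mark matches to letters searched on both strands: a κB-type site GGANNTTCC (GGAANNTCC on the other strand), a GAS-type site TTCNNNGAA, which reads alike on both strands, and the core of PU.1 sites, GAGGAA or its reverse complement. The Icam1 window is chr9:21015690-21015939 on the plus strand, that of Itga5 is chr15:103366792-103367041 on the minus strand and that of Itgav is chr2:83724147-83724396 on the plus strand.
Icam1: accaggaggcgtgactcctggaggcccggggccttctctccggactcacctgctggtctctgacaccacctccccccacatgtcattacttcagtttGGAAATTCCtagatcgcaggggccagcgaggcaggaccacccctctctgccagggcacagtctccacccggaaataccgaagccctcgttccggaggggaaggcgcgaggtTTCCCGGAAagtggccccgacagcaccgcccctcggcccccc
Itga5: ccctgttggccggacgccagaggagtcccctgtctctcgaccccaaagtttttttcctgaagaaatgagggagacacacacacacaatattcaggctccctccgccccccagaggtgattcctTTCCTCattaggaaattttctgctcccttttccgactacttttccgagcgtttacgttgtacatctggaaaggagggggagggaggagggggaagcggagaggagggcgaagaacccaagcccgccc
Itgav: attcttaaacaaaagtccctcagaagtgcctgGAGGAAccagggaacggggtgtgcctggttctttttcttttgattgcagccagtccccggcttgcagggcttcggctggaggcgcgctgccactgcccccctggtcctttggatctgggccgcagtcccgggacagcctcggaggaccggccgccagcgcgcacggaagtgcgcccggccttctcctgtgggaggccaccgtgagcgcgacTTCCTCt

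The Icam1 window held the κB-type letters GGAAATTCC, which begin 153 bases before the start site, and the GAS-type letters TTCCCGGAA, which begin 42 bases before it. Of 32851 RefSeq promoter windows of the same length, 3.59% held the κB-type letters, 7.02% the GAS-type letters and 23.3% the PU.1 core. Windows were given for 8 of the 10 genes, with none for Itgal and Itgb2, and neither the κB-type nor the GAS-type letters occurred in the other 7. The PU.1 core, known as a contact of the myeloid factor PU.1, occurred in Itgam, Itga5, Itgav and Itgb1. The matches are a description of letters and no test of binding was made.

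The LPS libraries held 15588502, 7263258 and 32659392 reads at 0 h, 2 h and 4 h, so the 2 h library was the shallowest. The deposited values are reads divided by 1 factor per library, and LPS folds below are ratios on this authors' scale unless another is named. The scale matters: over all genes the median log2 fold change at 4 h against 0 h was -0.04 on the authors' scale, 0.33 with each library centred on its median and -0.81 with reads scaled to equal library totals. Of the macrophage markers, 10 of 10 had reads at 0 h, and their summed level ran from 17772 to 31996 RPM (reads per 1000000 reads) in the LPS libraries and from 34192 to 37918 TPM in the AAV samples. The T cell genes Cd3e, Cd3g and Trac were at 0 in all 7 libraries. Of the same list, Cd4 had 197, 113 and 170 reads at 0 h, 2 h and 4 h, Lck 1, 82 and 524, and Cd8a 2, 0 and 12. Ly6g, a defining neutrophil gene, had at most 4 reads and at most 0.29 TPM. The summed neutrophil list was 470 RPM at 0 h, 625 at 2 h and 397 at 4 h. In the AAV experiment this sum was 593 and 565 TPM in AAV-GFP and 1090 and 681 TPM in AAV-Shisa3. Shisa3 itself measured 7.88 and 10.9 TPM under AAV-GFP against 12.3 and 17.8 TPM under AAV-Shisa3, which did not pass the test (log2 fold change 0.63 ± 0.22 SE, adjusted p = 0.138, limma). In such bulk RNA, fewer cells of a type and less RNA per cell cannot be told apart.

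The mRNA of 5 of the 10 genes was at least 2-fold higher at 2 h of LPS than at 0 h (Icam1, Itga5, Itgav, Itgal and Itgax), and that of 6 at 4 h (Icam1, Itga5, Itgav, Itgal, Itga4 and Itgb1). The background was 20.5% of the 17854 genes whose mean value reached 1 at 2 h and 22.2% at 4 h. No member was at least 2-fold lower at either time, against 24.7% and 23.6% of all genes. These background shares include genes with few reads. Adding 5 instead of 1 to each value before the log took the genes higher at 2 h from 3668 to 2673 and those lower from 4406 to 3197. At 4 h the counts went from 3958 to 3018 higher and from 4207 to 3198 lower, while the member counts stayed at 5 and 6. The median log2 fold change of the 10 genes was 0.89 at 2 h and 1.34 at 4 h, beside -0.05 and -0.04 over all genes. With reads scaled to library totals the medians were 0.23 and 0.52 beside -0.68 and -0.81, and 4 genes (Icam1, Itga5, Itgav and Itgal) were at least 2-fold higher at both times under each of the 4 scalings tried. Itgal was close to the limit at 2 h with library totals, at 2.04-fold. With library totals, 13.7% of all genes were at least 2-fold higher and 39.9% lower at 2 h, and 13.1% and 43.5% at 4 h. On that scale 1 member, Itgb7, was at least 2-fold lower at 4 h.

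**Figure D1:**
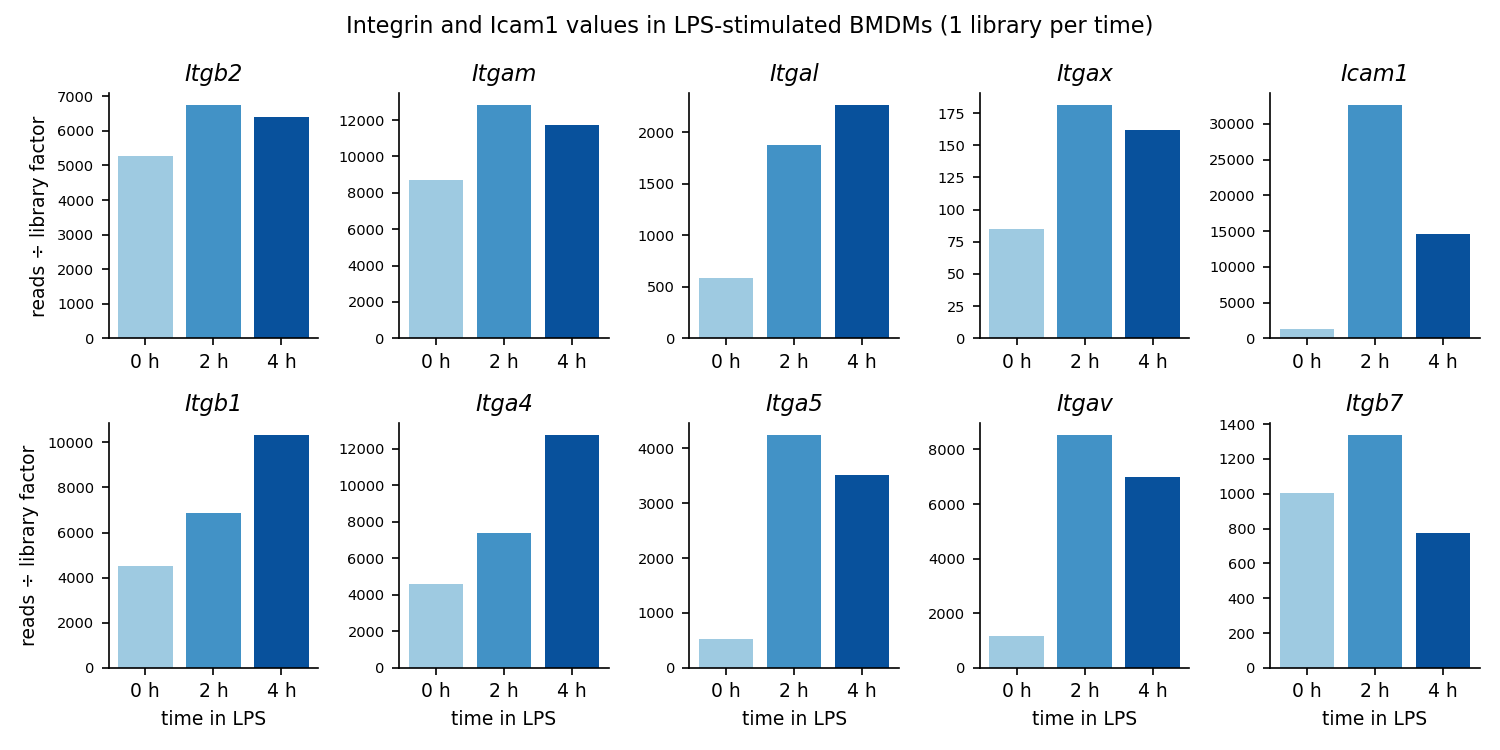
Deposited values (reads divided by a library factor, vertical axes from 0) of the 10 genes at 0 h, 2 h and 4 h of LPS, 1 bar per library. Icam1 stands at 1303, 32624 and 14554, while Itgb2 stays between 5276 and 6745.

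Icam1 (ENSMUSG00000037405.7), the immunoglobulin-family counter-receptor of the β2 integrins, lies at 21015985 to 21028817 on the plus strand of chromosome 9 in GRCm38. Its value was 1303 at 0 h, 32624 at 2 h and 14554 at 4 h. The 2 h library was thus the highest and the 0 h library the lowest. Icam1 was 25.0-fold higher at 2 h than at 0 h (95% interval 23.9 to 26.2, from an exact conditional binomial of the reads and covering counting error only) and 11.2-fold higher at 4 h (10.7 to 11.7). With library totals these folds were 15.8 and 6.31. Ordered from the highest log2 fold change, Icam1 stood at 199 at 2 h and at 607 at 4 h among the 17854 genes. At 4 h Icam1 was at 0.446 of its 2 h value (0.437 to 0.455), and of the members 1, Icam1, was at least 2-fold lower at 4 h than at 2 h, against 15.2% of all genes. No member was at least 2-fold higher at 4 h than at 2 h, against 17.9% of all genes. Genes with few reads add to these shares too. With 5 instead of 1 added to each value, the genes higher at 4 h than at 2 h fell from 3197 to 1830 and those lower from 2710 to 1551.

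The β2 integrin chains differed in how far they moved. Itgb2, the shared β chain (chromosome 10, 77530252 to 77565708), had values of 5276, 6745 and 6394 in the order of time. Itgam, the Mac-1 α chain (chromosome 7, 128062640 to 128118491), had values of 8711, 12818 and 11737. Both were within 1.5-fold of 0 h on the authors' scale, above it, and with library totals both were below it (Itgb2 0.808 and 0.685, Itgam 0.930 and 0.761), so their direction depends on the scale. Itgal, the LFA-1 α chain (chromosome 7, 127296260 to 127335138), had values of 582, 1874 and 2265. It was lowest at 0 h and highest at 4 h, with folds of 3.22 (2.93 to 3.54) and 3.90 (3.62 to 4.19), or 2.04 and 2.20 with library totals. Itgax, the CD11c chain often used to mark dendritic cells (chromosome 7, 128129547 to 128150657), was the lowest of the set at 84.9, 181 and 162. Its folds were 2.13 (1.60 to 2.83) and 1.91 (1.55 to 2.36), intervals that span the 2-fold limit, and with library totals they were 1.35 and 1.08, so the 2 h call of Itgax is lost on that scale.

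A second row named Itgam carries the identifier of Gm49368, an overlapping gene model that shares 68.7% of the exon bases of Itgam, and its values were 6633, 10172 and 8916. How reads were split between these models is not stated, so the level of Itgam is uncertain, while both rows had nearly the same folds (1.53 and 1.34 for the second row, 1.47 and 1.35 for the first).

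Itga5 and Itgav had larger folds than the chains of the β2 integrins. Itga5, the α chain of the fibronectin receptor (chromosome 15, 103344286 to 103366763, minus strand), had values of 521, 4245 and 3510. Itgav (chromosome 2, 83724397 to 83806916) had values of 1171, 8540 and 6996. Both were highest at 2 h and lowest at 0 h. Itga5 was 8.15-fold (7.50 to 8.85) and 6.74-fold (6.26 to 7.26) above 0 h, and Itgav 7.29-fold (6.90 to 7.72) and 5.98-fold (5.69 to 6.28). With library totals the folds at 4 h were 3.81 for Itga5 and 3.38 for Itgav.

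Itga4 and Itgb1, the chains of VLA-4, were highest later. Itga4 (chromosome 2, 79255426 to 79333123) had values of 4568, 7363 and 12773. Itgb1 (chromosome 8, 128685654 to 128733200) had values of 4513, 6872 and 10337. Both stood highest at 4 h, and the step from 2 h to 4 h was 1.73-fold (1.67 to 1.80) for Itga4 and 1.50-fold (1.45 to 1.56) for Itgb1. At 4 h the folds over 0 h were 2.80 (2.72 to 2.87) and 2.29 (2.23 to 2.35), which came to 1.58 and 1.29 with library totals. At 2 h they were 1.61 for Itga4 and 1.52 for Itgb1 on the authors' scale, and 1.02 and 0.963 with library totals, so the direction of Itgb1 at 2 h depends on the scale. Itgb7, the other β partner of Itga4 (chromosome 15, 102215995 to 102231944, minus strand), went the other way late, with values of 1004, 1339 and 774. It was lowest at 4 h, at 0.771 of the 0 h value (0.717 to 0.829). At 2 h it was above 0 h on the authors' scale (1.33) and below it with library totals (0.843), and at 4 h it was 0.435 of 0 h with library totals. With each library centred on its median, its log2 fold change at 4 h against 0 h was -0.0039. The fall of Itgb7 against 0 h thus depends on the scale.

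**Figure D2:**
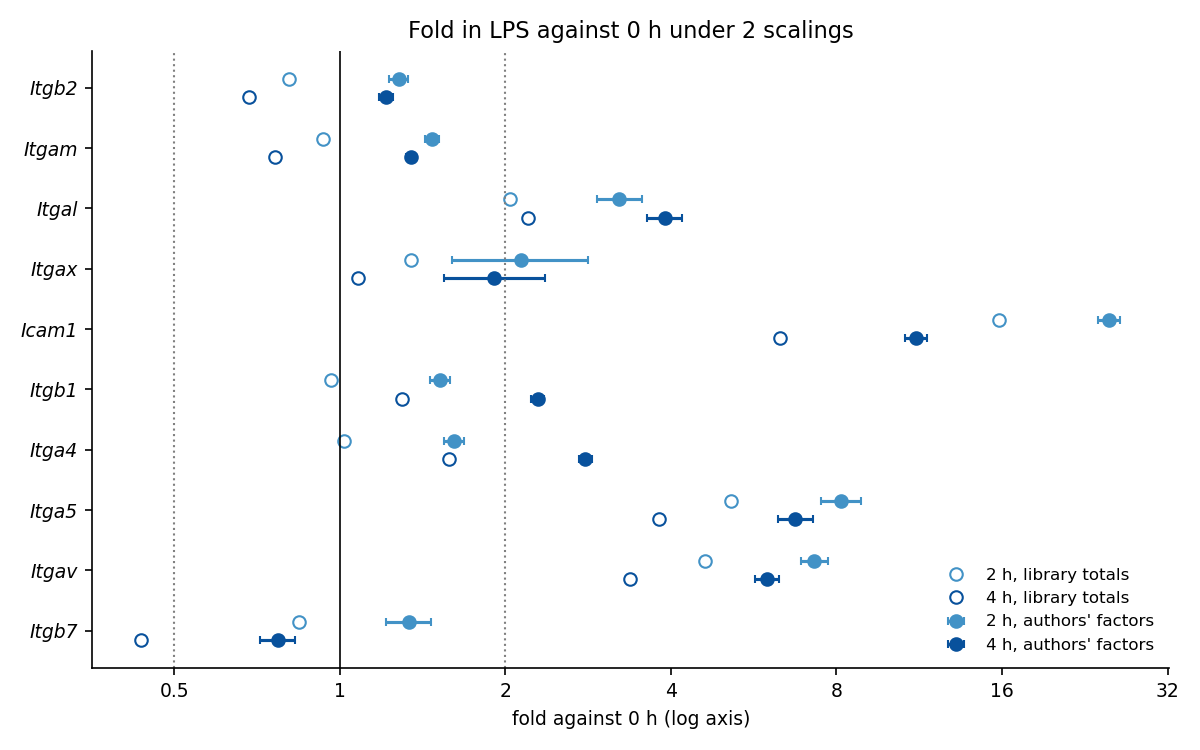
Fold against 0 h on a log axis for each gene at 2 h and 4 h, with filled points and 95% counting intervals on the authors' scale and open points with library totals. The dotted lines mark 0.5 and 2. Icam1, Itga5, Itgav and Itgal lie right of 2 on both scales at both times, while Itgb2 and Itgam lie right of 1 on one scale and left of it on the other.

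Ratios of reads within a library need no scaling between libraries. Set against Itgb2 in the same library, Icam1 stood 19.6-fold higher at 2 h than at 0 h (95% Wald interval of the log ratio 18.4 to 20.8, counting error only) and 9.21-fold at 4 h (8.74 to 9.72). At 4 h this ratio was 5.56-fold higher for Itga5 (5.14 to 6.01), 4.93-fold for Itgav (4.66 to 5.22), 3.21-fold for Itgal (2.98 to 3.47), 2.31-fold for Itga4 (2.22 to 2.40) and 1.89-fold for Itgb1 (1.82 to 1.97). For Itgb7 it was 0.636 of the ratio at 0 h (0.589 to 0.687). Itga4 and Itgb7, which encode partners, therefore moved apart: the Itga4 to Itgb7 read ratio was 4.55 at 0 h, 5.50 at 2 h and 16.5 at 4 h. The Itgal to Itgam read ratio was 0.0668, 0.146 and 0.193.

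Per length, as reads per kilobase of exon scaled to the library total (RPKM), the order at 0 h was Itgam (173), Itgb2 (172), Itgb1 (110), Itgb7 (36.2), Itga4 (32.6), Icam1 (29.8), Itgav (10.9), Itga5 (10.5), Itgal (8.83) and Itgax (1.76). The order depends on the length used: per length of the longest coding transcript, Icam1 (51.3) came before Itga4 (46.6) and Itgb7 (37.3). At 2 h Icam1 headed the order at 472 RPKM, ahead of Itgam at 161, and at 4 h it stood at 188 RPKM, Itgb1 at 143 and Itgam at 132. With the overlapping Gm49368 row added, Itgam came to 311, 294 and 236 RPKM in the order of time, which is below Icam1 at 2 h and above it at 4 h. Per length of the longest coding transcript, the 4 h levels were 323 for Icam1, 141 for Itgam and 105 for the Gm49368 row. Icam1 was then above both rows together, so this 4 h order also depends on the length used. Among the 4 α chains that pair with Itgb2 (the members and Itgad), Itgal made up 4.80%, 9.90% and 12.7% of the summed RPKM at 0 h, 2 h and 4 h, and Itgam 94.0%, 88.6% and 85.9%. With that row counted in, the Itgal share was 2.74%, 5.71% and 7.54%. Itgb1 RPKM per summed RPKM of its 12 α partners was 1.18, 0.677 and 1.01, and among those partners Itga6, a laminin receptor chain, went from 39.6% to 9.43% and 5.27%.

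Beyond the members, the same libraries held other parts of the adhesion machinery. List counts at 4 h against 0 h were taken on log2(value + 1) and stand beside 22.2% of all genes at least 2-fold higher and 23.6% at least 2-fold lower. With library totals the shares of all genes were 13.1% higher and 43.5% lower, and each list count with library totals is to be read beside these. Each list then had fewer genes higher and more lower. Of 16 other integrin subunits above the limit on low values, 6 were at least 2-fold higher and 4 at least 2-fold lower, with a median log2 fold change of 0.20. That limit, a mean value of 1, lets genes with few reads count in this list and the next ones. The higher genes included Itga2 (0, 0 and 7 reads in the order of time) and Itgae (0, 1 and 3 reads). Itga3 (7, 1 and 3 reads) was among the lower ones. With library totals 5 were higher and 7 lower (13.1% and 43.5% of all genes), with a median of -0.29 beside -0.81 for all genes. Itgb8, which with Itgav forms a receptor for latent TGF-β, had values of 7.08, 262 and 1235 (11, 120 and 2272 reads), 174-fold higher at 4 h than at 0 h (97.3 to 350). Itga9, a partner of Itgb1, had values of 57.9, 393 and 676. Itga6 had values of 3356, 2116 and 1195, and Itga10, a collagen receptor chain, 15.4, 13.1 and 4.89 (24, 6 and 9 reads).

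Of 31 genes of integrin activation and linkage, 8 were at least 2-fold higher and 7 at least 2-fold lower at 4 h, shares near those of all genes, with a median of 0.51. With library totals 3 were higher and 11 lower (13.1% and 43.5% of all genes), with a median of -0.32. Rapgef2, a guanine nucleotide exchange factor for Rap, had values of 778, 7833 and 13727, and Zyx, the focal adhesion protein zyxin, 1103, 5627 and 9406. Rassf5, the Rap1 effector RAPL that binds the αL chain, had values of 770, 218 and 149, and Rasgrp2, an exchange factor for Rap1, 68.8, 56.8 and 19.6.

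Of 17 outside-in signalling genes, 12 were at least 2-fold higher and 0 at least 2-fold lower at 4 h, with a median of 1.42. With library totals 6 were higher and 3 lower (13.1% and 43.5% of all genes), with a median of 0.60. The kinase Src, which acts below integrins, had values of 75.9, 2926 and 3361. The lowest folds of the list were those of the kinase gene Pik3cg, with values of 1415, 970 and 766, and of the phospholipase gene Plcg2, with values of 2971, 3282 and 2176. Their log2 fold changes at 4 h were -0.89 and -0.45 on the authors' scale, short of the 2-fold limit, and -1.71 and -1.27 with library totals, past it.

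Of 17 genes for ligands of the members above the limit, 9 were at least 2-fold higher and 0 at least 2-fold lower at 4 h, and with library totals 6 were higher and 5 lower (13.1% and 43.5% of all genes). C3, whose fragment iC3b binds Mac-1, had values of 880, 5322 and 9431, and Vcam1, the VLA-4 ligand, 118, 1293 and 925. Icam2, a further LFA-1 ligand, had values of 108, 80.8 and 54.3, and Hmgb1, a chromatin protein that cells can release, 477, 201 and 240. Among 19 other adhesion molecules, 9 were at least 2-fold higher and 0 at least 2-fold lower, with a median of 0.95. With library totals 7 were higher and 4 lower (13.1% and 43.5% of all genes), with a median of 0.12. The higher genes included Pecam1 (16.1, 52.4 and 86.4). The lowest log2(value + 1) fold changes of the list included those of Cd151 (525, 376 and 293) and Cd99l2 (434, 231 and 223).

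In AAV-Shisa3 against AAV-GFP the differences were small. Of the 10 genes, 0 were called higher and 0 lower by limma's trended test on log2(TPM + 1) at a Benjamini-Hochberg adjusted p under 0.05 over 11218 genes, against 2.23% of all genes called higher and 4.10% called lower. At an unadjusted p under 0.05, 3 α chains were higher (Itga4, Itga5 and Itgav) and 1 gene was lower (Icam1), beside 8.21% and 19.8% of all genes, and without the trend 0 members were called. Both AAV-Shisa3 samples lay above both AAV-GFP samples for 4 members (Itgax, Itga4, Itga5 and Itgav), against 18.2% of all genes, and below them for 3 (Itgam, Itgb2 and Icam1), against 41.2%. The median log2 fold change was 0.09 for the members and -0.10 over all genes. Centring each sample on its median moved the latter to 0.01 and the calls over all genes from 250 higher and 460 lower to 410 higher and 230 lower. An exact permutation test of 2 against 2 samples cannot go below p = 0.333, so single values rest on the fit across genes.

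**Figure D3:**
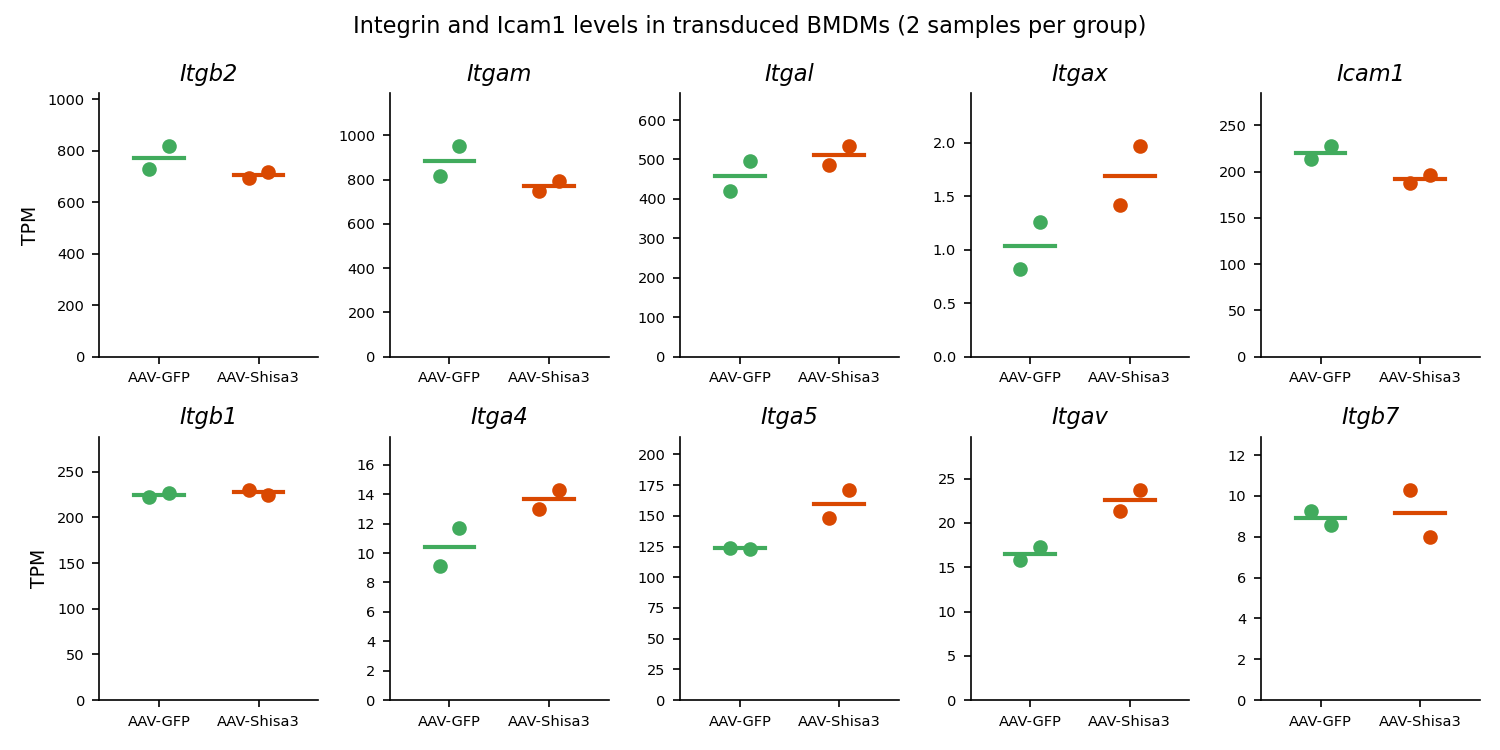
TPM of the 10 genes in AAV-GFP and AAV-Shisa3 BMDMs (vertical axes from 0), with 1 point per sample and a line at the mean of 2 samples. Itga5 and Itgav lie higher in both AAV-Shisa3 samples, Icam1 lies lower in both, and Itgb1 is between 222.65 and 230.41 TPM in all 4.

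Icam1 was 214 and 228 TPM in AAV-GFP and 187 and 196 TPM in AAV-Shisa3. The groups did not overlap, and both AAV-Shisa3 samples were the lower ones. The means were 221 ± 9.89 and 192 ± 6.23 TPM (SD, n = 2 each), with a log2 fold change of -0.20 (95% interval -0.38 to -0.02) and an adjusted p = 0.154 from limma. After centring, the change was -0.09.

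Of the β2 chains, Itgb2 was 729 and 818 TPM in AAV-GFP and 694 and 719 TPM in AAV-Shisa3. Itgam was 816 and 951 TPM in AAV-GFP and 749 and 793 TPM in AAV-Shisa3. For both, the AAV-Shisa3 samples were below the AAV-GFP samples, the group means differed by less than the 2 AAV-GFP samples did from each other, and neither passed the test (log2 fold change -0.13 ± 0.08 SE, adjusted p = 0.353 for Itgb2, and -0.19 ± 0.09 SE, adjusted p = 0.243 for Itgam, limma). After centring they were -0.01 and -0.08, and without AAV-GFP replicate 2 they were -0.04 and -0.08. Itgal was 421 and 496 TPM in AAV-GFP and 487 and 534 TPM in AAV-Shisa3, groups that overlap (0.16 ± 0.10 SE, adjusted p = 0.357, limma). Itgax was low, at 0.82 and 1.26 TPM against 1.42 and 1.97 TPM (0.40 ± 0.23 SE, adjusted p = 0.299, limma), and a fold on log2(TPM + 1) understates changes at such levels. Neutrophils also carry Itgam, Itgal and Itgb2. The summed neutrophil markers given above were highest in AAV-Shisa3 replicate 1, and 2 of the 7 tested, Camp and Ngp, were called higher by limma, beside 2.23% of all genes. All 7 lay above in both AAV-Shisa3 samples, beside 18.2% of all genes, with a median log2 fold change of 0.75. Their part in these values was not tested.

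The 3 α chains of the set outside the β2 group were each higher in both AAV-Shisa3 samples. Itga5 was 124 and 123 TPM in AAV-GFP and 148 and 171 TPM in AAV-Shisa3. Itgav was 15.8 and 17.3 TPM in AAV-GFP and 21.4 and 23.8 TPM in AAV-Shisa3. Neither pair of groups overlapped, and the AAV-Shisa3 samples were the higher ones. Itga5 had a log2 fold change of 0.36 (95% interval 0.14 to 0.59, adjusted p = 0.0740, limma) and Itgav of 0.42 (0.15 to 0.69, adjusted p = 0.0772, limma). After centring each sample on its median both passed the threshold, with 0.48 and an adjusted p = 0.0460 for Itga5 and 0.54 and an adjusted p = 0.0428 for Itgav (limma). The fits without 1 sample were not centred and do not bear on these calls, and their log2 fold changes were 0.26 to 0.47 for Itga5 and 0.35 to 0.50 for Itgav.

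Itga4 was 9.14 and 11.7 TPM in AAV-GFP and 13.0 and 14.3 TPM in AAV-Shisa3, with both AAV-Shisa3 samples the higher ones (0.37 ± 0.15 SE, adjusted p = 0.177, limma). Itgb1 was 223 and 227 TPM in AAV-GFP and 230 and 225 TPM in AAV-Shisa3. Itgb7 was 9.27 and 8.60 TPM in AAV-GFP and 10.3 and 8.0 TPM in AAV-Shisa3. The groups overlapped for both β chains, whose log2 fold changes had 95% intervals of -0.15 to 0.18 for Itgb1 and -0.35 to 0.40 for Itgb7.

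**Figure D4:**
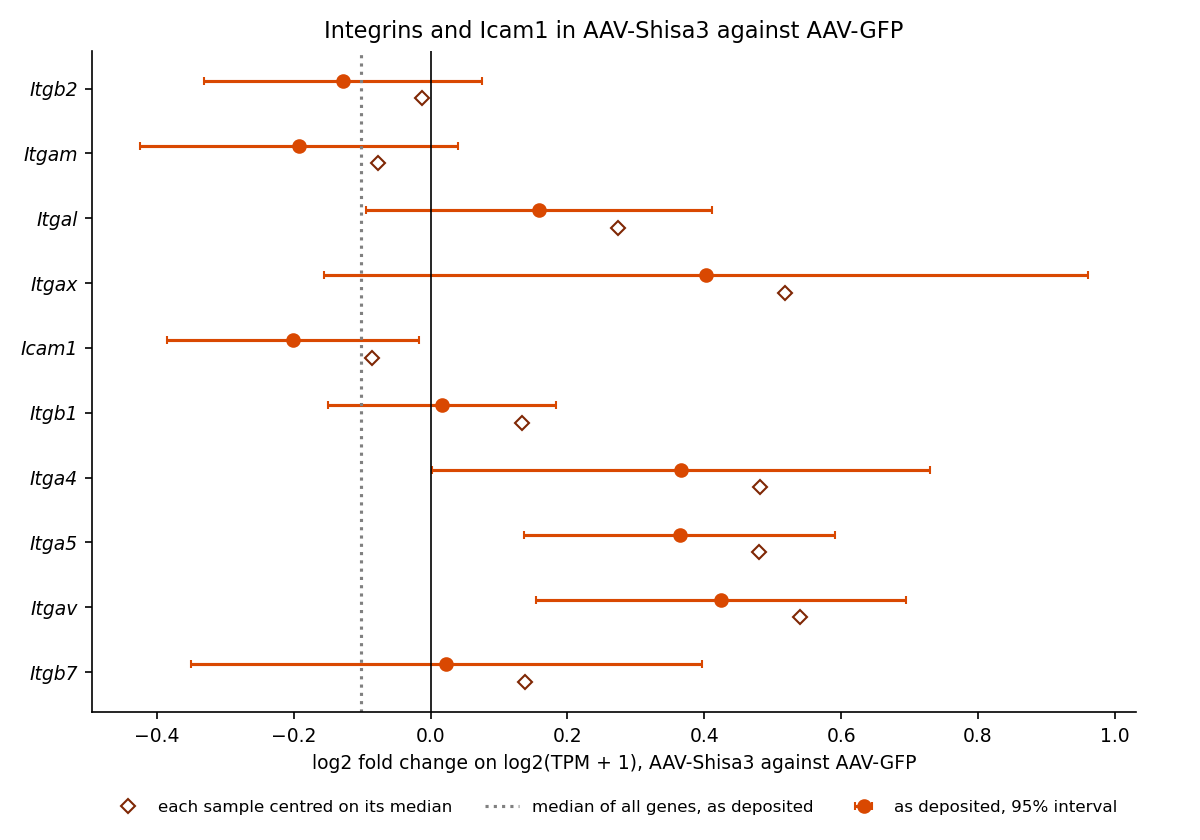
Log2 fold change of each gene in AAV-Shisa3 against AAV-GFP on log2(TPM + 1), with 95% intervals from limma (filled points) and the value after centring each sample on its median (open diamonds). The dotted line marks the median of all genes at -0.10, and the intervals of Itga4, Itga5 and Itgav lie right of 0 while that of Icam1 lies left of it.

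Per length, the order in AAV-GFP was led by Itgam and Itgb2, whose samples overlap when the Gm49368 row is left out, then Itgal, then Itgb1 and Icam1, which overlap, then Itga5 and Itgav, then Itgb7 and Itga4, which overlap, and last Itgax. The shares of the β2-partner α chains also do not depend on scaling between samples. Itgal made up 34.0% and 34.3% of their summed TPM in AAV-GFP and 39.3% and 40.2% in AAV-Shisa3, and Itgam 65.9% and 65.7% against 60.5% and 59.7%. Both AAV-Shisa3 samples were thus above both AAV-GFP samples for the Itgal share. The LPS and AAV tables were normalized separately, with RPKM in one and TPM in the other, so their levels are set side by side without a comparison: Itgal per Itgam was 0.0511 to 0.148 in the LPS libraries (0.0284 to 0.0823 with the Gm49368 row counted in) and 0.515 to 0.673 in the AAV samples (0.507 to 0.668), and Itga5 per Itga4 was 0.323 to 1.63 and 10.5 to 13.6. The Gm49368 row stood at 105 to 138 RPKM in the LPS libraries, and at 13.4 and 12.8 TPM in AAV-GFP and 8.87 and 6.22 TPM in AAV-Shisa3, so the tables do not divide the Itgam locus alike.

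**Figure D5:**
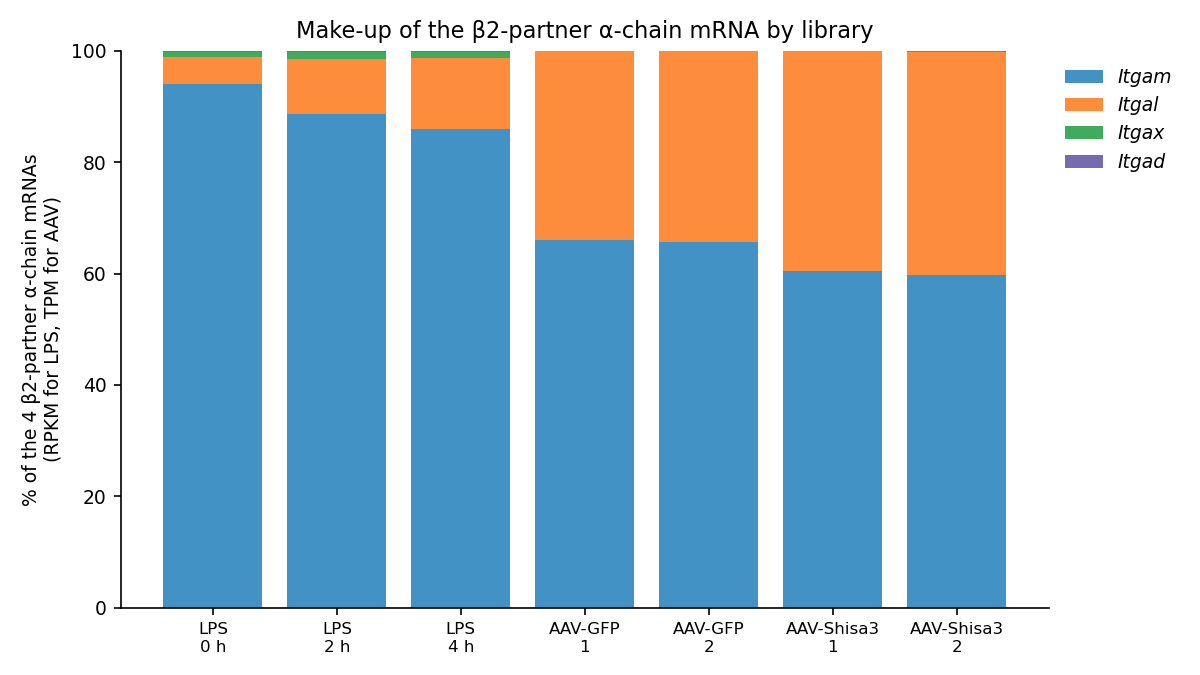
Share (in percent) of Itgam, Itgal, Itgax and Itgad in the summed per-length level of the 4 α chains that pair with Itgb2, 1 bar per library, from RPKM for LPS and TPM for AAV. The Itgal part is 4.80% at 0 h and 12.7% at 4 h of LPS, and 34.0% to 34.3% in AAV-GFP and 39.3% to 40.2% in AAV-Shisa3.

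From the wider lists, 7 genes passed the adjusted threshold, 5 of them higher and 2 lower, beside 2.23% and 4.10% of all genes. Without the trend in limma, 1 gene of all those tested was called higher and 4 lower, so most of the higher calls depend on the fit. Of 4 other integrin subunits tested, 1 was higher, Itgb5, a β partner of Itgav, at 34.0 and 31.4 TPM in AAV-GFP and 52.4 and 44.8 TPM in AAV-Shisa3 (log2 fold change 0.56 ± 0.11 SE, adjusted p = 0.0443, limma). The other 3, all α chains, lay below in both AAV-Shisa3 samples and were not called. Their log2 fold changes were -0.81 for Itga2b, -0.19 for Itga6 and -0.37 for Itga9 (adjusted p = 0.0893, 0.241 and 0.0906, limma). Of 13 genes for ligands, 2 were higher. Plaur, the urokinase receptor that associates with Mac-1, was 84.2 and 89.2 TPM against 223 and 230 TPM (1.38 ± 0.07 SE, adjusted p = 0.00962, limma). F11r, the junctional adhesion molecule that binds LFA-1, was 3.11 and 2.63 TPM against 5.70 and 5.84 TPM (0.81 ± 0.15 SE, adjusted p = 0.0398, limma).

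Of 27 genes of activation and linkage, 0 were called higher and 1 was called lower by limma (before adjustment, p was under 0.05 for 4 higher and 6 lower genes, beside 8.21% and 19.8% of all genes). The lower gene was Sipa1, a GTPase-activating protein for Rap1, at 94.1 and 106 TPM against 59.5 and 62.1 TPM (-0.71 ± 0.09 SE, adjusted p = 0.0216, limma). Of 16 outside-in signalling genes, the Src-family kinase Fgr was higher, at 35.9 and 40.8 TPM against 56.0 and 66.7 TPM (0.66 ± 0.12 SE, adjusted p = 0.0377, limma), and the exchange factor Vav3 was lower, at 11.8 and 12.7 TPM against 7.48 and 8.12 TPM (-0.59 ± 0.12 SE, adjusted p = 0.0465, limma), a call lost after centring (-0.47, adjusted p = 0.0659). Of 15 other adhesion molecules, the hyaluronan receptor Cd44 was higher, at 98.7 and 102 TPM against 130 and 139 TPM (0.42 ± 0.08 SE, adjusted p = 0.0377, limma). After centring, 3 further genes of activation and linkage (Zyx, Parvb and Parvg, adjusted p = 0.0455, 0.0353 and 0.0376, limma) and 2 further adhesion molecules (Cd9 and Ninj1, adjusted p = 0.0376 and 0.0355, limma) were called higher. The medians of these 5 lists, between -0.28 and 0.12, stood beside -0.10 for all genes.

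Over 10529 genes kept in both tables, the 5 genes nearest to Icam1 were chosen by the Euclidean distance over 3 log2 differences (2 h and 4 h of LPS against 0 h, and AAV-Shisa3 against AAV-GFP). Nfkbie, which encodes the NF-κB inhibitor IκBε, was the nearest at a distance of 0.30, with log2 differences of 4.48, 3.44 and 0.04 beside 4.64, 3.48 and -0.20 for Icam1. It was followed by Csf1, the gene of the growth factor M-CSF, at 0.42, Gm9825 at 0.47, Cdc42ep2, an effector of the GTPase Cdc42, at 0.48 and Zc3h12c, a zinc finger protein gene, at 0.50. Since the AAV difference entered the choice, no test is read for these genes.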

How the data were processed

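RNA-seq of 7 BMDM samples was used, and every sample column was mapped by its label. The signal deposited for LPS equals reads divided by 1 library factor. In each library 100% of values were whole multiples of 1 step within 0.001 reads, so reads were recovered. For AAV the deposited values sum to between 999778 and 999818 and were read as TPM, which is inferred, so depth is unknown. The labels name the build mm9, while the aligner and annotation are not given in the sources used here. Positions and exon lengths are from GENCODE M21 (GRCm38) and promoters from RefSeq (GRCm38.p6). The paper states an RNA input of 1 to 3 µg, the labels 4 µg.

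LPS folds used log2(value + 1) for genes whose mean reached 1, and for the wider lists genes with more than 3 reads in both libraries could be named. AAV groups were compared with limma (lmFit and eBayes with trend) on log2(TPM + 1), a mean of at least 1 TPM and Benjamini-Hochberg adjustment over all genes, two-sided, and the fit was tested on simulated data. Such folds are understated for low genes. Named genes were the 10 members, the genes of the 5 wider lists past the AAV threshold, the 2 largest rises and 2 largest falls per list at 4 h of LPS, and the 5 nearest to Icam1, of which 2 list genes are not reported here. The members, lists and tests were chosen with earlier results of these data known. Marker lists were macrophage, neutrophil, T cell, B cell, NK cell, conventional dendritic cell, mast cell and basophil, megakaryocyte and platelet, fibroblast and endothelial. Alternatives were other pseudocounts (0.1 and 5), filters and scalings (edgeR's TMM for the recovered reads), no trend, a replicate block and leaving out each sample. Counting intervals cover counting error only. Tools were limma 3.58.1 and edgeR 4.0.16 in R 4.3.3, and pandas 2.3.3, numpy 2.4.6, matplotlib 3.10.9 and scipy 1.17.1 in Python 3.11.15.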

Additional observations from a re-analysis of the deposited data

How the results depend on the processing

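For LPS, pseudocounts of 0.1 and 5, centring and edgeR's TMM kept each count of members at least 2-fold higher or lower within 1.5 times. With library totals 1 member, Itgb7, was at least 2-fold lower at 4 h, where the authors' scale gave 0. For AAV, 0 members were called higher as reported, 2 after centring (Itga5 and Itgav), 1 with no filter on low values (Itga5) and 1 with the replicate block (Itgav, adjusted p = 0.0465 from limma). With no filter 1 member was called lower (Itgam), but most residual variances are then 0 and limma warns that the fit is unreliable. Without the trend 1 gene in all was called higher and 4 lower. Centring gave 410 and 230, no filter 950 and 1605, and the replicate block 424 and 851. Without any 1 sample the counts were 0 to 27 higher and 0 to 7 lower, and 0 members. In each of these fits the group left with 1 sample is assumed to vary like the other group, and fewer samples are fitted. The cause of the changes in these counts was not tested. The replicate numbers are not stated to pair samples, and deviations of equal numbers correlated at 0.188 across genes. For Itgb1 the log2 fold change ran from -0.0011 (without AAV-Shisa3 replicate 1) to 0.0355 over the samples left out, and Itgb7 turned to -0.0256 without AAV-GFP replicate 2 and -0.1418 without AAV-Shisa3 replicate 1, and came to 0.1878 without AAV-Shisa3 replicate 2. Leaving out 1 sample also moved other log2 fold changes by over 1.5 times with no change of sign. Without AAV-GFP replicate 1, Itgal came to 0.0392, Itga4 to 0.2012, Itgax to 0.2464, Itgam to -0.3025 and Itgb2 to -0.2113. Without AAV-GFP replicate 2, Itgal came to 0.2772, Itgam to -0.0828 and Itgb2 to -0.0447. Without AAV-Shisa3 replicate 2, Itgal came to 0.0919 and Itgax to 0.2549. TPM keeps no depth, so no counting limit can be given for the AAV samples.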

Other observations

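The marker lists of other cell types differed widely in level. The summed B cell list was 0.888 to 7.12 RPM in the LPS libraries and 8.10 to 13.9 TPM in the AAV samples, and the NK cell list 0.0612 to 0.413 RPM and 0.03 to 0.1 TPM. The T cell list summed to 12.8 to 26.8 RPM and 6.01 to 11.3 TPM, mostly Cd4, which macrophages can express, and Lck, which had 1 read at 0 h, 82 at 2 h and 524 at 4 h. The conventional dendritic cell list summed to 8.02 to 18.0 RPM and 2.70 to 4.53 TPM, and the mast cell and basophil list to 1.99 to 3.44 RPM and 0.25 to 0.92 TPM. The fibroblast list summed to 30.7 to 46.0 RPM and 9.42 to 16.4 TPM, and the endothelial list to 77.7 to 111 RPM and 8.72 to 10.7 TPM. The megakaryocyte and platelet list, which shares Itga2b with the integrin subunits, summed to 94.9 to 163 RPM, and in the AAV samples to 693 and 819 TPM in AAV-GFP and 881 and 1132 TPM in AAV-Shisa3. None of its 3 tested genes was called by limma, and 1, Ppbp, was called higher after centring. Itga2b itself was 2.47 and 1.88 TPM in AAV-GFP and 0.62 and 1.01 TPM in AAV-Shisa3, with an adjusted p = 0.0893 from limma.

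The LPS values of the 7 genes of the wider lists called in the AAV comparison are given here, beside 22.2% of all genes at least 2-fold higher and 23.6% at least 2-fold lower at 4 h. Plaur had values of 266, 3690 and 1151 at 0 h, 2 h and 4 h, Fgr 134, 795 and 812, F11r 26.4, 124 and 125, and Cd44 1770, 7042 and 7769. Sipa1 had values of 1549, 697 and 541, lowest at 4 h. Itgb5 had values of 2827, 3706 and 1687, 0.597 of 0 h at 4 h, and Vav3 had values of 975, 2459 and 1449.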
